A study of Arabidopsis thaliana with 8 samples.

Results

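Messenger RNA of elf6 buds was compared directly with that of ref6 buds, 2 libraries against 2, without the wild type in the contrast. These are 4 of the 8 libraries of the study, chosen by genotype alone and compared over all genes. The buds were at floral stages 9 to 13, came from the primary inflorescence, and were taken from plants grown on soil in long days. The elf6 and ref6 plants carry T-DNA insertions in ELF6 and REF6 in the Col-0 background, and no treatment was given to either. The other 4 libraries, 2 of Col-0 and 2 of jmj13 (a T-DNA insertion in JMJ13), did not enter the contrast. They entered the filter on low counts, the scaling, the estimate of the spread and the description of where those genotypes lie. The labels name no allele, and the elf6 allele in the study's methods differs from the one in the names of the deposited data, so which elf6 insertion was sequenced is not known. The study places the ref6 insertion in the part of the gene that encodes the zinc fingers, with the part for the catalytic domain still transcribed, which limits ref6 as a model for the loss of REF6. How many plants went into a library is not stated. Nothing states that the 2 libraries of a genotype came from separate plants, so p-values measure the spread between these libraries only.

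Trimethylation of lysine 27 on histone H3 (H3K27me3) is laid down by Polycomb complexes and keeps genes silent. ELF6 and REF6 are paralogous Jumonji proteins that remove this mark, each with a catalytic JmjC domain and a run of zinc fingers near the end of the protein. JMJ13 is another enzyme of this kind, without those zinc fingers. ELF6 was first described for mutants that flower early, and REF6 for mutants that flower late.

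The library totals were 11494162 and 11610127 expected counts in elf6, and 11926737 and 12048319 in ref6. Of 25738 genes listed in any library, 19939 passed the filter on low counts and were tested. One ref6 library stood apart. In ref6 replicate 1 the 50 most abundant genes held 30.5% of all counts, against 20.3% in ref6 replicate 2 and 18.8% to 20.1% in elf6, and Col-0 replicate 1 had 29.3%. The log2 ratio between replicates had an SD over genes of 0.78 in ref6 and 0.49 in elf6. Levels are given below as CPM (counts per 1e6), scaled by the trimmed mean of M values (TMM), and each pair of values is in the order replicate 1, replicate 2. Differences are log2 fold changes of elf6 against ref6 with their standard error (SE), and n is 2 libraries in each genotype throughout.

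Genes were called differentially expressed (DEGs) if the adjusted p was below 0.05 and the levels differed 2-fold or more. There were 53 DEGs between elf6 and ref6, 0.266% of the tested genes. Of these, 44 were higher in elf6 (0.221%) and 9 were lower (0.0451%). The median change of the 44 was 2.51 and that of the 9 was −2.33, both on the log2 scale, against 0.01 over all tested genes. In every one of the 53 both elf6 libraries lay on one side of both ref6 libraries. Over all tested genes that held for 23.6% with elf6 above and for 21.8% with elf6 below. For the 53 this separation follows largely from how they were called and is no further support. The lowest adjusted p was 0.0130 and the highest among the DEGs 0.0486, so all calls lay near the threshold. At an unadjusted p under 0.05, 1177 genes (5.9%) were higher and 1155 (5.79%) lower in elf6. A similar balance was seen with DESeq2 size factors (1132 higher, 1229 lower) and with upper-quartile scaling (1165 higher, 1145 lower). It was absent with library size only, with 1352 higher and 361 lower at that p. With limma on log2(FPKM + 1), 1796 were higher and 366 lower. The balance was also not kept when ref6 replicate 1 was left out. The number of calls depended on single libraries. It was 0 without elf6 replicate 1 or without elf6 replicate 2, 5 without ref6 replicate 1 and 645 without ref6 replicate 2, with 1177, 1263, 1012 and 4954 genes at an unadjusted p under 0.05, respectively. In each of these 4 fits all 53 DEGs kept their direction and a change of at least 2-fold. They were chosen for large changes with all these libraries included, so this is not independent of the choice. In such bulk samples, fewer cells of a type and less RNA per cell cannot be told apart.

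**Figure D1:**
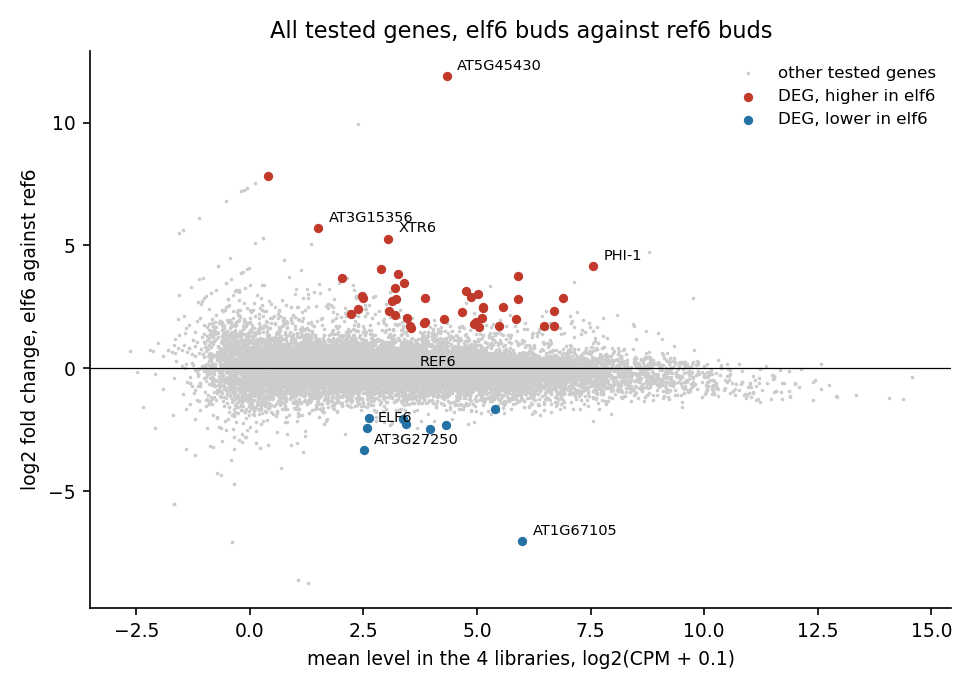
Each point is 1 of the 19939 tested genes, with its mean level in the 2 elf6 and 2 ref6 libraries as log2(CPM + 0.1) on the horizontal axis and its log2 fold change of elf6 against ref6 on the vertical axis. The 44 DEGs higher in elf6 (red) reach from 1.66 to 11.89, the 9 lower (blue) from −1.64 to −7.03, and REF6 lies at −0.17, a difference whose sign depended on the scaling and the libraries used.

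The targeted genes were examined first. ELF6 (AT5G04240, chromosome 5) was at 1.42 and 2.24 CPM in elf6 and at 10.7 and 9.16 CPM in ref6. It was lower in both elf6 libraries than in any of the other 6, where it lay between 7.59 and 10.7 CPM. The change was −2.43 ± 0.32 (SE, adjusted p = 0.0271), in the direction the elf6 labels give. REF6 (AT3G48430, chromosome 3) was at 12.8 and 8.31 CPM in elf6 and at 14.7 and 9.24 CPM in ref6. The 2 genotypes overlapped, with a difference of −0.17 ± 0.34 (SE, adjusted p = 0.866) that was 0.15 with library size only and 0.19 without ref6 replicate 1. This count takes in the whole gene, and an insertion that leaves the first part transcribed need not lower it, so REF6 does not check the ref6 labels. JMJ13 (AT5G46910) was at 5.84 and 3.52 CPM in elf6 and 2.37 and 3.88 CPM in ref6 (0.56 ± 0.43 SE, adjusted p = 0.639). The other Jumonji demethylases listed for this mark, JMJ30 and JMJ32, had differences of −0.03 and −0.16 and overlapped between the genotypes. Without ref6 replicate 1 the difference of JMJ30 was 0.65, and with library size only 4 of the 5 demethylases were above 0, against 1 of 5 with TMM. No other DEG lay within 1 Mb of either gene. Of 467 tested genes around ELF6, 12.6% were at an unadjusted p under 0.05, and of 342 around REF6 14.3%, against 11.7% of all tested genes.

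Several genes of the growing cell wall were among the DEGs that were higher in elf6. XTR6 (also XTH23, AT4G25810) encodes a xyloglucan endotransglucosylase/hydrolase (XTH), an enzyme that cuts and rejoins the xyloglucan chains of the wall. PHI-1 (AT1G35140) is a phosphate-induced gene of the EXORDIUM family. EXLA1 (AT3G45970) and EXLA2 (AT4G38400) encode expansin-like A proteins, secreted proteins related to the wall-loosening expansins. The 250 bases upstream of each gene start are shown for these 4. They were picked because they were higher together and carry short matches that were rarer over all tested genes. That all 4 hold a match is therefore no result. CSLC04 and FLA13, further wall genes among the higher DEGs, hold none of these matches in this window. The sequences are from the RefSeq TAIR10.1 assembly, read 5′ to 3′ on the strand of the gene, with capitals for CGTGTG, for CGCGTT and for the related CGCGTG on either strand.
XTR6 (chr4:13128144-13128393, plus strand): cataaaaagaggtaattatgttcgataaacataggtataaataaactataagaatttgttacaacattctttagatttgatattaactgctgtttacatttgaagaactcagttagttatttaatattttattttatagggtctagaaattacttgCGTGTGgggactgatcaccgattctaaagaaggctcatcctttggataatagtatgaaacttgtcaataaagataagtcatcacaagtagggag
PHI-1 (chr1:12851733-12851982, plus strand): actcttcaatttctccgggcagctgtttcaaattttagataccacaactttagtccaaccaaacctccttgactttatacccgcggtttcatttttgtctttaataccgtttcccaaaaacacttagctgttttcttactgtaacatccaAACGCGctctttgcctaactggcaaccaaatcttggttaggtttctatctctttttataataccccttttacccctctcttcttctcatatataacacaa
EXLA1 (chr3:16895916-16896165, plus strand): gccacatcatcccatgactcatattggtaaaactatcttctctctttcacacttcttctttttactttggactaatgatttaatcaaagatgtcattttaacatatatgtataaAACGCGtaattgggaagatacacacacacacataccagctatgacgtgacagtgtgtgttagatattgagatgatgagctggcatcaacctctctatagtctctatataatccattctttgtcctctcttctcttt
EXLA2 (chr4:17979741-17979990, minus strand): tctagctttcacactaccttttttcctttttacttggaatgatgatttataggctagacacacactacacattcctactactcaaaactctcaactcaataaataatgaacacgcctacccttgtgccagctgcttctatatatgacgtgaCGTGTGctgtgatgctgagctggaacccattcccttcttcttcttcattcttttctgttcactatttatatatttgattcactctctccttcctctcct

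The capitals begin 94 bases before the gene start in XTR6, 100 in PHI-1, 136 in EXLA1 and 99 in EXLA2. The words are related to the elements that calmodulin-binding transcription activators recognise in promoters of fast stress-response genes. In the same windows CGTGTG was found for 7 of the 44 higher DEGs (15.9%) and for 5.43% of 19799 tested genes. CGCGTT or CGCGTG was found for 6 of the 44 (13.6%) and for 5.14% of the tested genes. The G-box CACGTG was present for 4 of the 44 (9.09%) and for 7.31% of all. The 8-base words CTCTGCTC, CTCTGCTT, CTCTGTTC and CTCTGTTT, which the zinc fingers of REF6 recognise, were present for 2 of the 44 (4.55%), for 0 of the 9 lower DEGs and for 5.4% of all. The 9 lower DEGs held CGCGTT or CGCGTG in 1 window and the other words in none. All words were searched on both strands, and a CACGTG or CGCGTG followed by TG holds a CGTGTG as well. A match is only a run of letters in this window.

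XTR6 was at 12.5 and 19.3 CPM in elf6 and at 0 and 0.699 CPM in ref6, with 0 and 9 counts in the latter. It was 5.28 ± 0.66 higher on the log2 scale (SE, adjusted p = 0.0256), and jmj13 (0.359 and 0.379 CPM) and Col-0 (1.14 and 1.21 CPM) also lay below both elf6 libraries. PHI-1 was at 329.8 and 386.0 CPM in elf6 and at 8.36 and 31.4 CPM in ref6 (4.16 ± 0.66 SE, adjusted p = 0.0384). No library of another genotype came near the elf6 level of PHI-1, the highest being Col-0 replicate 1 at 43.9 CPM. EXLA1 was at 94.4 and 115.4 CPM in elf6 and at 9.27 and 19.9 CPM in ref6 (2.83 ± 0.41 SE, adjusted p = 0.0332). EXLA2 was at 149.8 and 193.2 CPM in elf6 and at 20.5 and 48.1 CPM in ref6 (2.32 ± 0.38 SE, adjusted p = 0.0432). The elf6 and ref6 libraries did not overlap for any of the 4, and ref6 replicate 1 was the lower ref6 library each time. EXLA1 and EXLA2 share 84.2% of their transcript bases over 822 aligned, so reads could be split between them, and EXLA1 overlaps a gene on the other strand. Other wall genes were higher with smaller changes. CSLC04, a synthase of the xyloglucan backbone, had 48.2 and 51.8 CPM in elf6 and 12.7 and 18.2 CPM in ref6 (1.69 ± 0.25 SE, adjusted p = 0.0344). FLA13, a fasciclin-like arabinogalactan protein of the cell surface, had 53.5 and 58.2 CPM in elf6 and 13.7 and 13.0 CPM in ref6 (2.06 ± 0.32 SE, adjusted p = 0.0350).

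Most XTH genes had higher values in elf6, whereas most expansins proper had lower ones. Of 33 XTH genes 21 passed the low-count filter, and XTR6 was their only DEG. At an unadjusted p under 0.05, 14 were higher and 0 lower, against 5.9% and 5.79% of all tested genes, and the median was 1.19. TCH4 (XTH22), a touch-induced XTH that is also on the touch and wound list, had 776.9 and 921.4 CPM in elf6 and 6.33 and 56.8 CPM in ref6, a difference of 4.74 ± 0.84 that missed the threshold (SE, adjusted p = 0.0542). XTH4 and XTH9, which were abundant in every library, had 449.4 and 553.0 CPM against 253.2 and 187.2 CPM, and 653.8 and 846.1 CPM against 259.3 and 400.2 CPM (adjusted p = 0.177 and 0.164). The XTH median was 1.19 without ref6 replicate 1 and 1.16 without ref6 replicate 2. Of 35 expansin genes 19 were tested, and the DEGs EXLA1 and EXLA2 were the only members at an unadjusted p under 0.05 with a higher level in elf6. Of the 14 α-expansins (EXPA) tested, 8 were lower at that p and 0 higher, with a median of −0.94. Of the 3 β-expansins (EXPB), 2 were lower at that p. All 3 had both elf6 libraries below both ref6 libraries, which held for 21.8% of all tested genes. EXPB3, the member with the lowest adjusted p among these, had 117.7 and 116.2 CPM in elf6 and 290.6 and 261.8 CPM in ref6 (−1.24 ± 0.27 SE, adjusted p = 0.0937). EXPA3, labelled EXP3 in the annotation, had 46.2 and 44.4 CPM in elf6 and 216.2 and 91.3 CPM in ref6 (−1.76 ± 0.43 SE, adjusted p = 0.137). The EXPA median was −0.55 without ref6 replicate 1. No EXPA or EXPB gene passed the threshold, and EXPB3, EXPA3 and EXPA1 also belong to the listed ELF6 targets described further on.

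Genes known for fast induction by touch and wounding were higher in elf6 as a group of values, although few passed the test one by one. The list holds calmodulin-like proteins, zinc finger, WRKY and ERF transcription factors and kinases, and 37 of its 41 genes were tested. Among them 2 were DEGs, both higher. At an unadjusted p under 0.05, 20 were higher and 0 lower, against 5.9% and 5.79% of all tested genes, and the median was 1.28. In 29 of the 37 both elf6 libraries lay above both ref6 libraries, which held for 23.6% of all tested genes. WRKY33, a transcription factor of defence and of camalexin synthesis, had 61.4 and 56.4 CPM in elf6 and 9.04 and 12.4 CPM in ref6 (2.45 ± 0.39 SE, adjusted p = 0.0384). WRKY22, which acts downstream of a pattern-triggered kinase cascade, had 15.9 and 19.5 CPM in elf6 and 3.62 and 4.81 CPM in ref6 (2.06 ± 0.33 SE, adjusted p = 0.0387). WRKY33 overlaps genes on the other strand. Both factors were also low in Col-0 and jmj13, where WRKY33 reached at most 17.8 CPM and WRKY22 at most 4.85 CPM.

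Most members of the list missed the threshold. TCH3 (CML12), a touch-induced calmodulin-like protein, had 251.9 and 264.3 CPM in elf6 and 4.63 and 40.6 CPM in ref6 (3.50 ± 0.75 SE, adjusted p = 0.0943). WRKY18 had 69.4 and 73.8 CPM in elf6 and 1.02 and 12.4 CPM in ref6 (3.36 ± 0.71 SE, adjusted p = 0.0907). WRKY11 had 50.9 and 58.5 CPM against 21.5 and 23.4 CPM (1.28 ± 0.23 SE, adjusted p = 0.0594). For TCH3 and WRKY18, ref6 replicate 1 lay far below ref6 replicate 2, and the 2 elf6 libraries lay close together. Without ref6 replicate 1 the list median was 1.11, and without ref6 replicate 2 it was 1.80. The size of the difference therefore depended on the ref6 library used. ERF4, CML23 and RRTF1 were the members with a change below 0 (−0.52, −0.22 and −0.07), each with overlapping libraries.

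Outside the list, ERF2, an ethylene response factor, had 54.5 and 61.0 CPM in elf6 and 2.60 and 11.3 CPM in ref6 (3.01 ± 0.51 SE, adjusted p = 0.0482). AT1G33760, annotated as an Integrase-type DNA-binding protein of the same large family, had 11.9 and 15.8 CPM in elf6 and 0.339 and 1.24 CPM in ref6 (4.03 ± 0.59 SE, adjusted p = 0.0344). HAT1, a homeodomain-leucine zipper factor, had a change of 1.72 ± 0.27 (SE, adjusted p = 0.0382). ERD6, a sugar transporter named for early induction by dehydration, had 108.9 and 114.7 CPM in elf6 and 7.01 and 9.47 CPM in ref6 (3.75 ± 0.52 SE, adjusted p = 0.0298). It was the only DEG among 21 sugar transporter genes, of which 5 were higher and 2 lower at an unadjusted p under 0.05, with a median of 0.10 that was 0.30 without ref6 replicate 1. STP4, a hexose transporter, had 29.8 and 49.1 CPM in elf6 and 11.8 and 13.8 CPM in ref6 and missed the threshold (1.62 ± 0.32 SE, adjusted p = 0.0747). EDA39, a calmodulin-binding protein, had 19.2 and 19.3 CPM in elf6 and 0.678 and 2.64 CPM in ref6 (3.46 ± 0.48 SE, adjusted p = 0.0298). PP2-A5, a phloem protein 2 family member, had 8.53 and 6.39 CPM in elf6 and 0.226 and 0.854 CPM in ref6 (3.67 ± 0.55 SE, adjusted p = 0.0344).

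**Figure D2:**
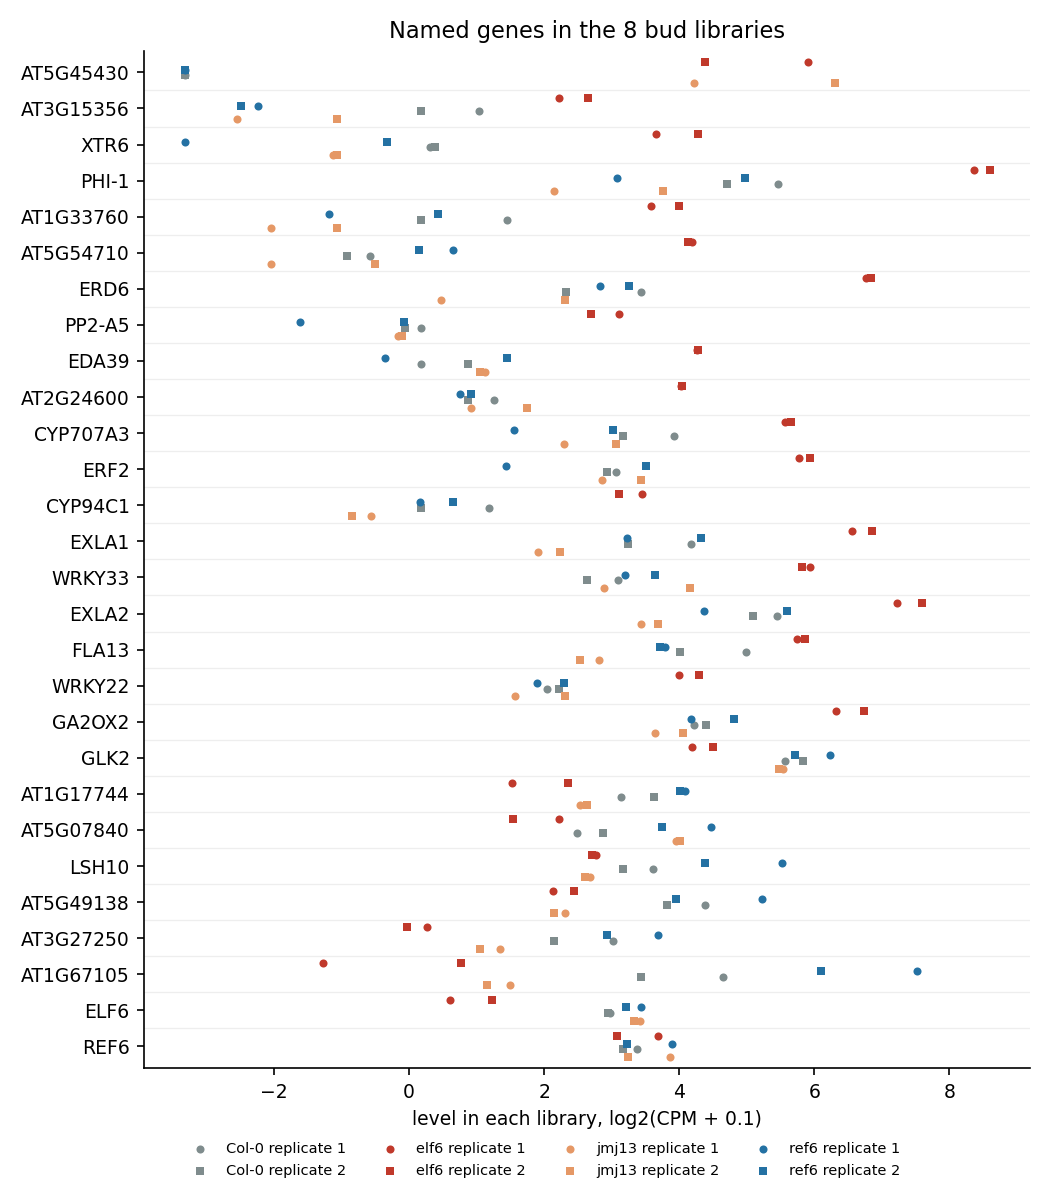
Each row is a named gene and each point the level of 1 library as log2(CPM + 0.1), with colour for genotype, circles for replicate 1 and squares for replicate 2. From AT5G45430 to GA2OX2 the elf6 points (red) lie right of both ref6 points (blue), and from GLK2 to ELF6 they lie left of them, while REF6 overlaps.

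Enzymes that inactivate plant hormones were higher in elf6 for 3 hormones. CYP707A3, an abscisic acid 8′-hydroxylase that starts the breakdown of abscisic acid, had 47.3 and 50.4 CPM in elf6 and 2.83 and 7.99 CPM in ref6 (3.14 ± 0.46 SE, adjusted p = 0.0344). CYP94C1, which oxidises the active jasmonate conjugate jasmonoyl-isoleucine, had 10.8 and 8.55 CPM in elf6 and 1.02 and 1.47 CPM in ref6 (2.93 ± 0.45 SE, adjusted p = 0.0350). GA2OX2, a gibberellin 2-oxidase that inactivates gibberellins, had 79.4 and 106.4 CPM in elf6 and 18.0 and 28.0 CPM in ref6 (2.01 ± 0.30 SE, adjusted p = 0.0344). That these 3 share such a role was noticed after their values were seen. CYP94C1 was the only DEG of 32 tested genes of jasmonate synthesis and signalling, with 4 higher and 4 lower at an unadjusted p under 0.05 and a median of −0.05. The median was −0.13 to 0.10 when 1 library was left out, and 0 genes were lower at that p without elf6 replicate 1 or without ref6 replicate 1. OPCL1 and JAZ7 were among the higher of these (1.39 and 1.42, adjusted p = 0.247 and 0.283), and AOC1 and AOC4, allene oxide cyclases of jasmonate synthesis, among the lower (−1.31 and −1.02, adjusted p = 0.288 and 0.290). GA2OX2 was the only DEG of 17 tested gibberellin genes, with 2 higher and 3 lower at that p and a median of −0.23 that was −0.12 without ref6 replicate 2. RGL3, a DELLA repressor of gibberellin response, had 7.98 and 6.87 CPM in elf6 and 17.1 and 14.3 CPM in ref6 (−1.07 ± 0.27 SE, adjusted p = 0.155).

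Several of the remaining higher DEGs belong to defence and membrane signalling. NUDT7, BON1, SLAH3, IP5PII, CYP706A1, CYP82G1, AT1G63860 and AT3G44630, like CSLC04 and HAT1 above, were chosen for description after their values were seen. NUDT7, a nucleotide diphosphate hydrolase that restrains immunity, had 201.8 and 218.7 CPM in elf6 and 14.6 and 42.5 CPM in ref6 (2.87 ± 0.46 SE, adjusted p = 0.0387). BON1, a copine that also restrains immune responses, had 50.2 and 43.9 CPM in elf6 and 12.8 and 14.0 CPM in ref6 (1.81 ± 0.25 SE, adjusted p = 0.0298). BON1 overlaps AT5G61910 on the same strand with identical bases, so its counts are uncertain. The annotated TIR-NBS-LRR disease resistance genes AT1G63860 and AT3G44630 had changes of 2.21 ± 0.37 and 1.88 ± 0.25 (SE, adjusted p = 0.0465 and 0.0271). AT1G63860 shares 89.3% of 970 aligned bases with AT1G63870, and AT3G44630 shares 97.0% of 1722 with AT3G44480 and overlaps a gene on the other strand. SLAH3, an anion channel of the plasma membrane, had 54.5 and 63.9 CPM in elf6 and 8.36 and 12.3 CPM in ref6 (2.51 ± 0.28 SE, adjusted p = 0.0144). IP5PII, an inositol polyphosphate 5-phosphatase, had 14.3 and 16.0 CPM in elf6 and 1.24 and 3.18 CPM in ref6 (2.72 ± 0.44 SE, adjusted p = 0.0384). The P450 genes CYP706A1 and CYP82G1, the second of which makes volatile homoterpenes, changed by 2.51 ± 0.32 and 1.66 ± 0.25 (SE, adjusted p = 0.0256 and 0.0344), and CYP706A1 shares 93.0% of 1878 aligned bases with AT4G22710. AT3G15356, a legume lectin family gene, had 57.7 and 76.8 counts in elf6 and 1 count in each ref6 library. The ratio of summed counts, scaled by the TMM-adjusted library sizes, was 58.2, with an exact counting interval of 15.8 to 485.9 at 95% (adjusted p = 0.0332 in the fit). The ankyrin repeat genes AT5G54710 and AT2G24600 had 18.1 and 17.3 CPM against 1.47 and 1.01 CPM, and 16.3 and 16.3 CPM against 1.58 and 1.79 CPM (both with an adjusted p = 0.0148). AT5G54710 shares 93.5% of 291 aligned bases with AT5G54720. A further 7 DEGs on this side, AAP5 (an amino acid permease), AT4G36850, AT2G39210, AT5G19190, AT4G19150, AT1G04770 and AT2G34510, had changes of 1.70 (AAP5) to 2.82 (AT4G36850) with adjusted p-values of 0.0332 to 0.0486.

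Since a difference between the mutants can lie in either of them, the position of Col-0 and jmj13 was scored for each DEG on the log2 scale, with 0 at the ref6 mean and 1 at the elf6 mean. No test was made of these positions, and they have no share over all tested genes beside them. The most abundant genes held a similar share of counts in Col-0 replicate 1 (29.3%) and ref6 replicate 1 (30.5%). What part this had in the Col-0 positions was not tested. For the 44 higher DEGs the median position was 0.23 for Col-0 and 0.10 for jmj13. Col-0 lay nearer ref6 in 34 of the 44, jmj13 in 35 and both in 33. All higher DEGs named up to here were among the 33, apart from AT3G15356, AT2G39210 and AT5G45430, the last of which is described below. In AT3G15356, Col-0 had 1.94 and 1.04 CPM and jmj13 0.0718 and 0.379 CPM, so that the ref6 libraries resembled jmj13. The jmj13 libraries lay beyond ref6, at a position below 0, for 16 of the 44. EXLA2 was one of these, with 10.7 and 12.8 CPM in jmj13, under both ref6 libraries.

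For 8 of the 44, Col-0 and jmj13 both lay nearer elf6, so that the 2 ref6 libraries stood apart on the low side. Those named here were chosen after their values were seen. AT5G39850, a gene for ribosomal protein S4 of the small subunit, had 24.5 and 26.4 CPM in elf6 and 2.71 and 4.19 CPM in ref6 (2.86 ± 0.28 SE, adjusted p = 0.0130). Its Col-0 libraries had 20.7 and 23.2 CPM and its jmj13 libraries 21.7 and 24.6 CPM. AT1G65370, a TRAF-like family gene, had 51.0 and 51.7 CPM in elf6 and 5.31 and 8.38 CPM in ref6 (2.89 ± 0.29 SE, adjusted p = 0.0130), with 29.5 to 68.6 CPM in the 4 other libraries. PMSR1, a methionine sulfoxide reductase that repairs oxidised methionine, had 7.50 and 9.75 CPM in elf6 and 1.36 and 1.79 CPM in ref6 (2.43 ± 0.37 SE, adjusted p = 0.0344). Cpn60beta3, a subunit of the plastid chaperonin, had 37.4 and 24.2 CPM in elf6 and 7.12 and 7.99 CPM in ref6 (2.02 ± 0.31 SE, adjusted p = 0.0350). ChlAKR, a chloroplast aldo-keto reductase, AT1G51670 and AT1G07450 also belong to the 8. AT1G51670 overlaps annotated genes on both strands, and whether the counting used strand is not given in the sources used here. In all 8 genes both ref6 libraries were the lowest of the 8 libraries of the study, which follows largely from how the 8 were picked.

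**Figure D3:**
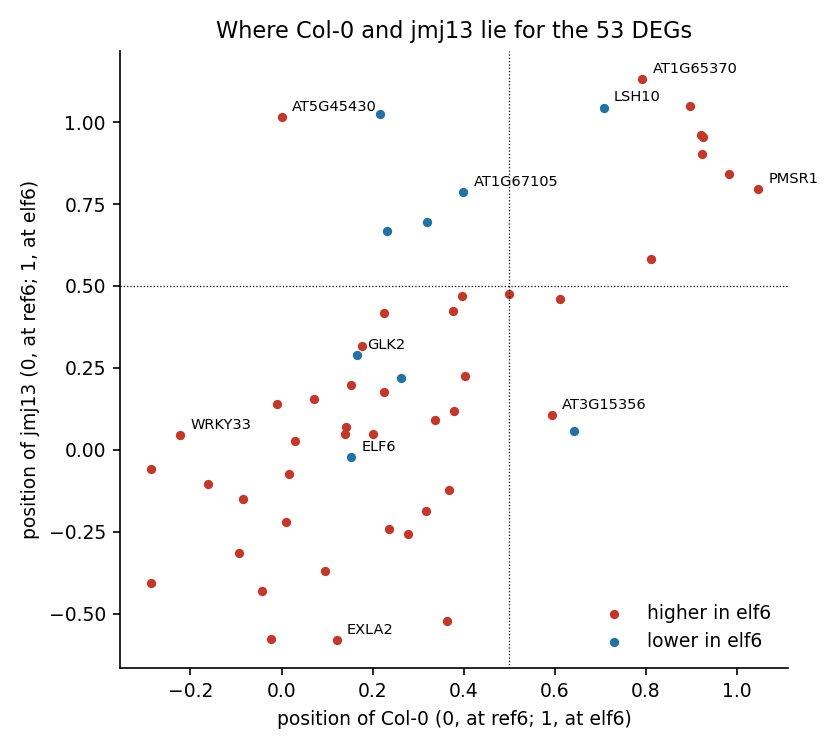
Each point is 1 of the 53 DEGs, with the position of Col-0 on the horizontal axis and that of jmj13 on the vertical axis, where 0 is the mean of ref6 and 1 the mean of elf6 on the log2 scale and the dotted lines mark the midpoint. Of the 44 genes higher in elf6 (red), 33 lie in the lower left, near ref6 on both axes, and 8 in the upper right, near elf6 on both.

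Some DEGs had 0 counts in both ref6 libraries. One of them, AT5G45430, a protein kinase gene on chromosome 5, had 755.4 and 259.9 counts in elf6, which is 59.6 and 20.8 CPM and at least 140.5-fold above the floor of 3 counts per library, from the mean of both elf6 libraries (adjusted p = 0.0344). The elf6 library with the lower level was at least 72.6-fold above it. The gene also had 257.4 and 1045.9 counts in jmj13 and 0 and 0 in Col-0. It was therefore either well covered in both libraries of a genotype or listed at 0 in both. The floor of 3 counts was 0.286 CPM as the mean of the 2 ref6 libraries, and it covers counting error only.

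The 9 DEGs lower in elf6 were led by a long non-coding RNA. AT1G67105, annotated as other RNA on chromosome 1, had 4 and 20 counts in elf6 and 1630 and 881 in ref6, or 0.316 and 1.60 CPM against 184.3 and 68.4 CPM (−7.03 ± 0.75 SE, adjusted p = 0.0142). The ref6 libraries were the highest of the study and the elf6 libraries the lowest, with 25.0 and 10.7 CPM in Col-0 and 2.73 and 2.12 CPM in jmj13. AT3G27250, an uncharacterised protein, had 1.11 and 0.879 CPM in elf6 and 12.8 and 7.53 CPM in ref6 (−3.33 ± 0.46 SE, adjusted p = 0.0298). AT5G49138, a second other RNA that overlaps a gene on the opposite strand, had 4.26 and 5.35 CPM in elf6 and 37.4 and 15.4 CPM in ref6 (−2.45 ± 0.41 SE, adjusted p = 0.0486). LSH10, of the ALOG family of nuclear proteins, had 6.71 and 6.47 CPM in elf6 and 45.7 and 20.7 CPM in ref6 (−2.33 ± 0.37 SE, adjusted p = 0.0382). Its jmj13 libraries lay with elf6 and its Col-0 libraries, at 12.1 and 8.89 CPM, were between. AT5G07840, an ankyrin repeat gene, had 4.58 and 2.80 CPM in elf6 and 22.0 and 13.3 CPM in ref6 (−2.25 ± 0.35 SE, adjusted p = 0.0350), with jmj13 at the ref6 level. GLK2, a transcription factor of chloroplast development, had 18.2 and 22.6 CPM in elf6 and 75.1 and 52.3 CPM in ref6 (−1.64 ± 0.27 SE, adjusted p = 0.0432). AT5G07840 and AT1G17744 each overlap a gene on the opposite strand. The uncharacterised AT1G17744 (−2.08 ± 0.34 SE, adjusted p = 0.0385), the raffinose synthase gene AT5G40390 (−2.04 ± 0.35 SE, adjusted p = 0.0486) and ELF6 complete the 9. Col-0 lay nearer ref6 for 7 of the 9 and jmj13 for 4. By chromosome, 5 of the 9 lower DEGs and 12 of the 44 higher ones were on chromosome 5, which holds 23.2% of the tested genes.

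The lower side held further genes just outside the threshold, which are given as values. AT2G01540, with a calcium-dependent lipid-binding domain, had 4.26 and 5.51 CPM in elf6 and 17.3 and 17.6 CPM in ref6 (−1.83 ± 0.33 SE, adjusted p = 0.0544). JAL23, a jacalin-related lectin, had 65.0 and 51.0 CPM against 152.5 and 164.1 CPM (−1.45 ± 0.26 SE, adjusted p = 0.0567). The epithiospecifier gene AT1G54040, whose product directs glucosinolate breakdown, had 51.8 and 58.3 CPM against 178.7 and 140.8 CPM (−1.54 ± 0.29 SE, adjusted p = 0.0609). AT1G01250, AT4G24780 and AT2G32240 had changes of −1.81, −1.48 and −1.71 with adjusted p-values of 0.0634, 0.0701 and 0.0705.

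The study lists predicted targets of ELF6 and of JMJ13, which it chose from chromatin data and from the levels in its own elf6, jmj13 and Col-0 libraries. The lists used here hold those that also differed 2-fold between elf6 and jmj13. The chromatin data were of buds that lacked REF6 as well as ELF6 and JMJ13. Since the elf6 libraries helped to choose both lists, their direction here is not independent evidence. Of the 23 listed ELF6 targets, all tested, 0 were DEGs, 13 were lower and 0 higher at an unadjusted p under 0.05, and the median was −1.17. Without ref6 replicate 1, 7 were lower at that p and the median was −1.01. In 21 of the 23 both elf6 libraries lay below both ref6 libraries, against 21.8% of all tested genes. AT3G63210, a gene of abscisic acid-regulated dormancy and the member with the lowest p, had 19.0 and 24.0 CPM in elf6 and 104.9 and 46.1 CPM in ref6 (−1.81 ± 0.37 SE, adjusted p = 0.0843). CBF1, a cold-induced transcription factor, had 0.474 and 0.320 CPM in elf6 and 6.10 and 0.854 CPM in ref6, so its difference came mostly from ref6 replicate 1 (−3.05 ± 0.85 SE, adjusted p = 0.186). Of the 18 listed JMJ13 targets, all tested, 1 was a DEG (AT3G15356, higher), 7 were higher and 0 lower at an unadjusted p under 0.05, and the median was 1.07. The median was 0.41 without elf6 replicate 2, and 3 were higher at that p without ref6 replicate 1. PUP18, a purine permease, had 85.8 and 87.7 CPM in elf6 and 18.7 and 19.9 CPM in ref6 (2.17 ± 0.44 SE, adjusted p = 0.0834). JAZ7, a repressor of jasmonate response, had 56.0 and 57.9 CPM in elf6 and 15.6 and 26.8 CPM in ref6 (1.42 ± 0.47 SE, adjusted p = 0.283).

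**Figure D4:**
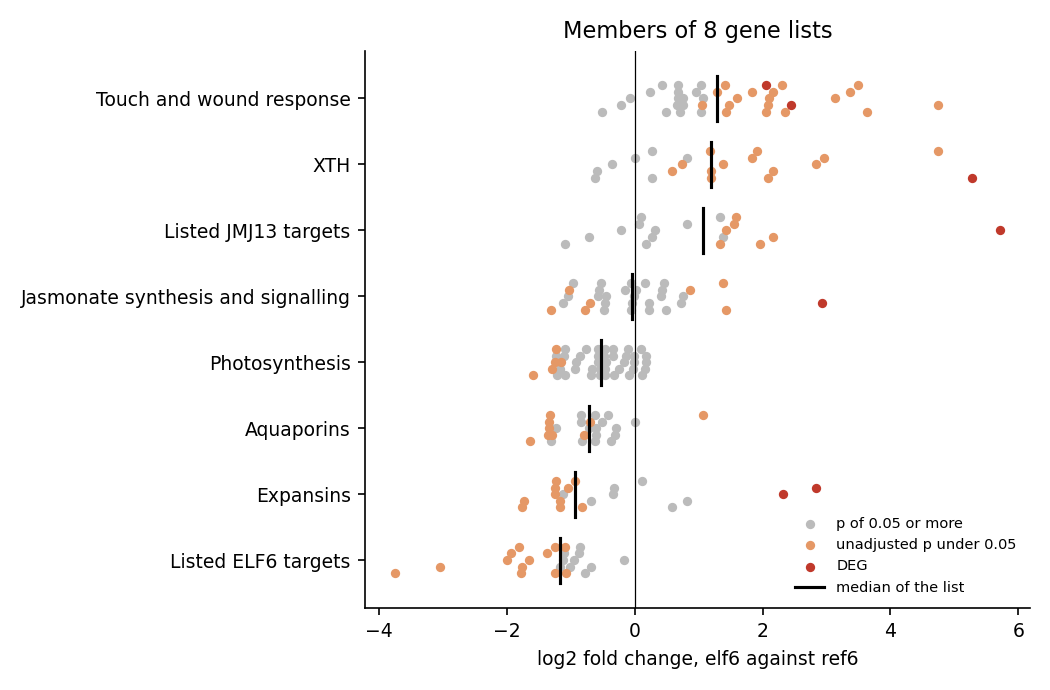
Each point is a tested gene of 1 of 8 lists, placed by its log2 fold change of elf6 against ref6, with DEGs in red, genes at an unadjusted p under 0.05 in orange and the list median as a black bar. The medians run from 1.28 for the touch and wound list to −1.17 for the listed ELF6 targets, and EXLA1 and EXLA2 are the 2 red points of the expansins.

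Genes of floral organs and of reproduction held no DEG. AG, the MADS-box factor of stamen and carpel identity, was the nearest of the 12 tested organ identity genes, with 41.1 and 35.7 CPM in elf6 and 11.4 and 18.6 CPM in ref6 (1.35 ± 0.28 SE, adjusted p = 0.0845). INO, a YABBY factor of the outer ovule integument, had 3.87 and 3.99 CPM in elf6 and 0.791 and 0.621 CPM in ref6 (2.48 ± 0.46 SE, adjusted p = 0.0609). Among the 22 carpel and ovule genes 4 were higher and 3 lower at an unadjusted p under 0.05, with a median of 0.27. The median was 0.48 without elf6 replicate 1 and 0.05 without elf6 replicate 2, and 0 were lower at that p without elf6 replicate 1 or without ref6 replicate 1. SHP1 and STK, close relatives of AG, were 2 of the 4 (1.08 and 1.07, adjusted p = 0.162 and 0.270). RAV2, a floral repressor also named TEM2, had 5.29 and 6.23 CPM in elf6 and 0.791 and 1.09 CPM in ref6 (2.58 ± 0.52 SE, adjusted p = 0.0822), the lowest p of 27 flowering time genes. No tested gene of meiosis (17), late pollen (15) or flavonoid synthesis (13) was at an unadjusted p under 0.05, and the medians were 0.01, −0.43 and 0.01. The late pollen median was −0.95 without elf6 replicate 1 and −0.01 without elf6 replicate 2. The flavonoid median was −0.34 without ref6 replicate 1, with 0 of 13 genes above 0, and 0.44 without ref6 replicate 2. The meiosis median was 0.06 to 0.18 when 1 library was left out. The tapetum and pollen wall list had 1 of 24 at that p (CYP704B1, 0.74 ± 0.31 SE, adjusted p = 0.392) and the stamen growth list 2 of 9, both lower, of which MYB24 had the lower p (−1.11 ± 0.37 SE, adjusted p = 0.281).

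Marker genes of other tissues were summed as length-scaled TPM (transcripts per 1e6) to show what else differed between the libraries. The petal and stamen markers AP3 and PI were present in all 4 libraries, with a sum of 78.4 to 151.4 TPM, while the root markers summed to 4.26 to 7.90 TPM. The 6 green tissue markers summed to 60773 and 53544 TPM in elf6, 92638 TPM in ref6 replicate 1 and 57061 TPM in ref6 replicate 2. The higher sum lay in CAB1, CAB2 and CAB3, with CAB1 at 35960 TPM in ref6 replicate 1 and 15942 TPM in ref6 replicate 2. RBCS1A was at 26730 TPM in ref6 replicate 1, between the elf6 values of 27000 and 24853 TPM. In TMM-scaled CPM it was at 34060.7 and 20371.7 CPM in ref6 and at 22436.6 and 20679.8 CPM in elf6. On that scale ref6 replicate 1 was therefore above both elf6 libraries. RCA (1448 TPM) and CA1 (796 TPM) were lower in ref6 replicate 1 than in ref6 replicate 2 and elf6, but TPM is not TMM-scaled. In TMM-scaled CPM, RCA was at 3353.9 and 3340.7 CPM in ref6 and at 3024.5 and 3276.3 CPM in elf6. CA1 was at 1316.8 and 1172.5 CPM in ref6 and at 1284.3 and 1485.7 CPM in elf6, so neither was lowest in ref6 replicate 1 on that scale. The tapetum markers summed to 817.9 and 1005.4 TPM in elf6, and to 571.1 and 963.8 TPM in ref6. The photosynthesis, aquaporin and arabinogalactan lists gave values that moved with ref6 replicate 1. Of 44 photosynthesis genes 5 were lower in elf6 at an unadjusted p under 0.05, with a median of −0.53, which was −0.11 with 0 genes at that p without ref6 replicate 1. Of 25 aquaporins 8 were lower and 1 higher, with a median of −0.72, which was −0.16 with 0 lower and 1 higher without that library. Of 44 arabinogalactan protein genes FLA13 was the only DEG, 2 were higher and 6 lower at that p, and the median was −0.39, which was 0.16 without ref6 replicate 1. Without ref6 replicate 2 the genes lower at that p were 25 of the photosynthesis, 18 of the aquaporin and 20 of the arabinogalactan list. TIP1;2, a tonoplast aquaporin labelled TIP2, had 1344.5 and 1348.0 CPM in elf6 but 5216.7 and 1669.3 CPM in ref6. The part of green tissue in these differences was not tested. All 53 DEGs kept a change of at least 2-fold without ref6 replicate 1. They were chosen for large changes with that library included, so this does not test its part in them.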

How the data were processed

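RNA was extracted from buds with phenol and chloroform, enriched for mRNA and sequenced as single-end reads on a BGI platform. Per the labels and the study's methods, the authors aligned reads to TAIR10 with Bowtie2 and quantified genes with RSEM, for which no versions are given in the sources used here. The authors deposited, per library, expected counts (estimated, and whole for 89.2% to 91.7% of values) and FPKM. TPM was calculated here by scaling FPKM to a fixed sum per library.

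Expected counts were rounded to whole numbers, filtered with filterByExpr, scaled by TMM and fitted with glmQLFit of edgeR (4.0.16, R 4.3.3) for the quasi-likelihood test, with all 8 libraries in the fit and Benjamini-Hochberg adjustment over all tested genes. The genes named are the demethylases, up to 12 DEGs with the largest change in each direction among those with no overlap of libraries and a mean TPM of at least 5, DEGs in a gene list, the gene with the lowest p of each list without a DEG, and genes at 0 in one genotype, with other names marked as chosen after their values were seen. The members and the gene lists were chosen with earlier results of these data known. Alternatives used DESeq2 1.42.0, limma 3.58.1 on FPKM, other scalings, filters and sets of libraries. The main test was also run on simulated data in which no library had a shifted composition. That run does not bear on how the calls depend on single libraries. Promoter windows were read from TAIR10.1, whose nuclear sequence is that of TAIR10. Same-numbered elf6 and ref6 libraries did not deviate together (r = 0.0742 over genes), so numbers were not treated as pairs, although r was 0.364 for Col-0 with ref6 and 0.268 for jmj13 with elf6. Some items are not reported here.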

Additional observations from a re-analysis of the deposited data

How the results depend on the processing

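The number of DEGs, with those higher and lower in elf6, was within 1.5 times of 53 (44 and 9) with DESeq2 size factors, upper-quartile scaling or no fold criterion. It was 26 (24 and 2) with library size only, which moved the median of all genes to 0.28 on the log2 scale, 424 (276 and 148) by DESeq2's test, 449 (307 and 142) with no filter on low counts and 32 (28 and 4) for genes with a mean of at least 50 counts. It was 32 (30 and 2) when only the elf6 and ref6 libraries were fitted, 158 (137 and 21) with Col-0 left out, and 340 (286 and 54) by NOISeq criteria on TPM. With limma it was 138 (131 and 7) on log2(FPKM + 1), 23 (21 and 2) on log2(FPKM + 0.1) and 96 (92 and 4) above a mean FPKM of 1. With the replicate number as a block (replicate block) it was 210 (167 and 43), although the numbers share no stated source. Without ref6 replicate 1 and Col-0 replicate 1 together, an alternative chosen after seeing the data, it was 250 (207 and 43). Leaving out 1 library gave 0 to 645 DEGs, 0 to 344 of them higher and 0 to 301 lower. The cause of these shifts was not tested. Over 28 named DEGs, 358 of 500 values stayed past the threshold, 142 missed it and 0 changed direction. Of the genes named by the rule, whose demethylases are ELF6, REF6 and JMJ13, REF6 alone changed direction. It went from −0.17 to 0.15 with library size only and to 0.20 without both replicate 1 libraries. It was 0.087, 0.11 and 0.087 in the 3 limma fits in the order above. Without elf6 replicate 2 it was 0.11, and without ref6 replicate 1 it was 0.19. JMJ30, outside the rule, went from −0.03 to 0.65 without ref6 replicate 1. Leaving out 1 library gave REF6 changes of −0.52 to 0.19. With 2 libraries a genotype, small changes were not detectable.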

Other observations

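The remaining gene lists held no DEG. Of 30 auxin response genes 2 were higher and 1 lower in elf6 at an unadjusted p under 0.05, with a median change of 0.21 on the log2 scale that was 0.05 without ref6 replicate 1 and 0.39 without ref6 replicate 2. SHY2 (IAA3), a repressor of auxin response, had 22.0 and 15.9 CPM in elf6 against 2.37 and 6.60 CPM in ref6 (2.04 ± 0.47 SE, adjusted p = 0.113). Of 53 SAUR genes 3 were higher and 5 lower, with a median of −0.27. Without ref6 replicate 1, 5 were higher and 1 lower, with a median of 0.09. AT1G75590 had 2.61 and 3.12 CPM in elf6 against 11.0 and 5.82 CPM in ref6 (adjusted p = 0.143). Of 20 brassinosteroid genes 3 were higher and 3 lower, and BEH3, a relative of the factor BZR1, had 18.8 and 18.9 CPM against 7.23 and 9.08 CPM (adjusted p = 0.160). The ethylene list had 2 of 17 genes higher and 0 lower, with 0 higher without elf6 replicate 2.

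Among genes of chromatin and division, FIE, a subunit of the Polycomb complex that writes H3K27me3, had 18.2 and 17.4 CPM in elf6 against 9.95 and 10.7 CPM in ref6 (0.79 ± 0.24 SE, adjusted p = 0.230) and was the only 1 of 14 Polycomb genes at an unadjusted p under 0.05. HTB2 was the only 1 of 25 histone genes at that p (0.77, adjusted p = 0.377). The cell cycle list had 1 of 41 genes higher and 3 lower (0 lower without elf6 replicate 1, elf6 replicate 2 or ref6 replicate 1), with KRP6, an inhibitor of cyclin-dependent kinases, at the lowest p (1.23, adjusted p = 0.248). The clock list had 1 of 22 higher and 2 lower (ZTL −0.66, adjusted p = 0.319), the cold list 0 of 12 higher and 3 lower (0 lower without ref6 replicate 1), and the heat shock list 1 of 9 higher (HSFB2A 1.19, adjusted p = 0.266). Of 8 genes listed as senescence targets of REF6, 1 was higher and 1 lower, with a median of 0.20 that was −0.20 without ref6 replicate 1.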
